A study of Mus musculus with 12 samples.

Results

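The genes followed were 8 of one signalling step: Frat1 and Frat2, which bind glycogen synthase kinase 3 (GSK3), both GSK3 genes (Gsk3a and Gsk3b), and 4 genes of the beta-catenin destruction complex (Ctnnb1, Apc, Axin1 and Csnk1a1). They were found by matching these symbols to the gene names in the scanner files, which gave 13 probes for the 8 genes, among 55681 non-control probes and 25538 genes tested. Frat1 was chosen by its measured fall in cultures that received a WNT agonist, so its culture values are given as a description with no test. The other 7 genes were Frat2, which also binds GSK3, the genes of GSK3 itself, and genes of the complex in which GSK3 acts. All 8 were chosen with earlier results of these data known. All 13 probes passed the filter on dim signal, and all were well above background on all 12 arrays.

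The study measured total RNA on single-colour Agilent arrays in neurons derived from male mouse embryonic stem cells of 129/Ola background at day 16 of differentiation, and in 4 brain tissues of Sv129s6 embryos at E15. CHIR_8-16 cultures received WNT and BMP inhibitors until day 8 and then the WNT agonist CHIR, at 3 µM, until day 16. CHIR_11-16 cultures received the inhibitors until day 11 and then the agonist until day 16, with no dose given for them in the labels. WiBi_0-16 cultures received the inhibitors throughout, and WiBi_0-11 cultures received them until day 11 with no agonist afterwards. All 4 culture groups therefore share exposure from day 0 to the WNT inhibitor 53AH at 2.5 µM and the BMP inhibitor LDN193189 at 0.25 µM. Each culture group had 2 arrays, replicate 1 on slide 2 and replicate 2 on slide 3, and midbrain, cortex, hippocampus and ventral telencephalon had 1 array each, all on slide 1. Per the labels, RNA of 3 sets of experiments was pooled, and nothing says whether the replicates were separate cultures. The p-values therefore measure the spread between these arrays, which may be technical. For agonist minus inhibitor-only cultures 2 pooled means were fitted, so that spread also holds differences between the groups pooled on each side.

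When WNT signalling is off, the scaffold proteins Axin and APC hold beta-catenin, the product of Ctnnb1, beside casein kinase 1 alpha, the product of Csnk1a1, and GSK3. Casein kinase 1 phosphorylates beta-catenin first, GSK3 then adds further phosphates, and the marked protein is degraded. FRAT proteins bind GSK3 and, when in excess, compete with Axin for it, which stabilises beta-catenin, although mice that lack the Frat genes develop with WNT signalling intact. The labels name the agonist only as CHIR, and the CHIR compounds commonly used in stem cell culture as WNT agonists are inhibitors of GSK3.

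Frat1 and Frat2 are neighbours on mouse chromosome 19, with 0 protein-coding genes between them in RefSeq, and they point towards each other. In the scanner files (mm9), the Frat1 probe lies at chr19:41906864-41906923 on the plus strand and the brighter Frat2 probe at chr19:41920708-41920767 on the minus strand, 13.8 kb apart. Their promoters, shown because both genes were low with the agonist, cover 250 bases before to 50 bases after each start (RefSeq, GRCm38.p6, Frat1 at chr19:41829720-41830019, plus strand, and Frat2 at chr19:41848083-41848382, minus strand). Capitals mark a run of 63 bases that is identical in both.
Frat1 promoter: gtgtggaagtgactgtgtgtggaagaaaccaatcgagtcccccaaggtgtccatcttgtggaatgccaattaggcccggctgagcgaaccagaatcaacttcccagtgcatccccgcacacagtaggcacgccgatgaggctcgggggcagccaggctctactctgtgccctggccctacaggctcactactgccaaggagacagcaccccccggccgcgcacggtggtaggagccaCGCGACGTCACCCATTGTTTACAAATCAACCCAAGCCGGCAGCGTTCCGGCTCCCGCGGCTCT
Frat2 promoter: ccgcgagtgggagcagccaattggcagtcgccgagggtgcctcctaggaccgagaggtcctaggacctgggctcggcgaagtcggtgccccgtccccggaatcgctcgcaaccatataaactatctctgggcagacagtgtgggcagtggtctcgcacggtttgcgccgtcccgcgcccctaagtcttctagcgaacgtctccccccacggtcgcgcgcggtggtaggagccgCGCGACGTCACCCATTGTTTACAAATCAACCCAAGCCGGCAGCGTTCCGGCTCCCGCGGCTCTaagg
The run begins 13 bases before the Frat1 start and 17 bases before the Frat2 start, and in Frat1 it reaches the end of the window. Among 32851 promoters in the table, 2 held it, these 2. It is preceded in both by a further identical run of 14 bases, with 1 differing base between the runs.

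Inside the shared run lie TGTTTAC, a core that forkhead factors bind, and GACGTCA, the core of a cyclic AMP response element. Searched on both strands, TGTTTAC was in 3.65% and GACGTCA in 3.21% of all promoters in the table, and both motifs were picked after the run was seen. CTTTGA, the core bound by TCF and LEF factors through which beta-catenin acts, was in neither Frat promoter window, was in the windows of Gsk3a and Gsk3b, and was in 16.0% of all promoters on either strand. A match is a string of letters and not a shown binding site. Of the 8 genes, 5 had a promoter in the table.

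Frat1, an activator of beta-catenin signalling through GSK3, had log2 levels of -1.32 and -1.24 in CHIR_8-16 cultures, -0.63 and -0.53 in CHIR_11-16 cultures, 1.54 and 1.38 in WiBi_0-16 cultures, and 1.55 and 1.45 in WiBi_0-11 cultures, where 0 is the 75th percentile of the array's signals. Every agonist array was below every inhibitor-only array, and both CHIR_8-16 arrays were below both CHIR_11-16 arrays. The WiBi_0-16 and WiBi_0-11 ranges overlapped. Against WiBi_0-11, Frat1 was 6.86-fold lower in CHIR_8-16 (log2 difference -2.78, SE 0.16) and 4.24-fold lower in CHIR_11-16 (-2.08, SE 0.16). Between the agonist groups the difference was -0.69 (SE 0.16), CHIR_8-16 being the lower, and it was -0.69 on slide 2 and -0.70 on slide 3. WiBi_0-16 differed from WiBi_0-11 by -0.04. The values by slide were close, at -2.87 on slide 2 and -2.69 on slide 3 for CHIR_8-16 minus WiBi_0-11.

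Frat2, the adjacent gene, whose protein also binds GSK3, followed the same order on its brighter probe. Its log2 levels were -1.61 and -1.77 in CHIR_8-16 cultures, -0.28 and -0.19 in CHIR_11-16 cultures, 0.46 and 0.87 in WiBi_0-16 cultures, and 0.51 and 0.88 in WiBi_0-11 cultures. As for Frat1, each agonist array was below each inhibitor-only array, the agonist groups did not overlap, and the inhibitor-only groups did. Against WiBi_0-11, Frat2 was lower in CHIR_8-16 by 5.24-fold (difference -2.39, SE 0.23, -2.13 on slide 2 and -2.65 on slide 3). The difference passed the limma test across 25538 genes when slide was a block (adjusted p = 0.025, Benjamini-Hochberg) and did not without the block (adjusted p = 0.13). Against WiBi_0-16 it was -2.36 (adjusted p = 0.029 with the block, 0.093 without). CHIR_11-16 minus WiBi_0-11 was -0.94 (limma adjusted p = 0.27 with the block, 1.0 without). Between the agonist groups the difference, CHIR_8-16 minus CHIR_11-16, was -1.45 (limma adjusted p = 0.13 with the block, 0.82 without, 95% interval -2.01 to -0.90 without).

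**Figure D1:**
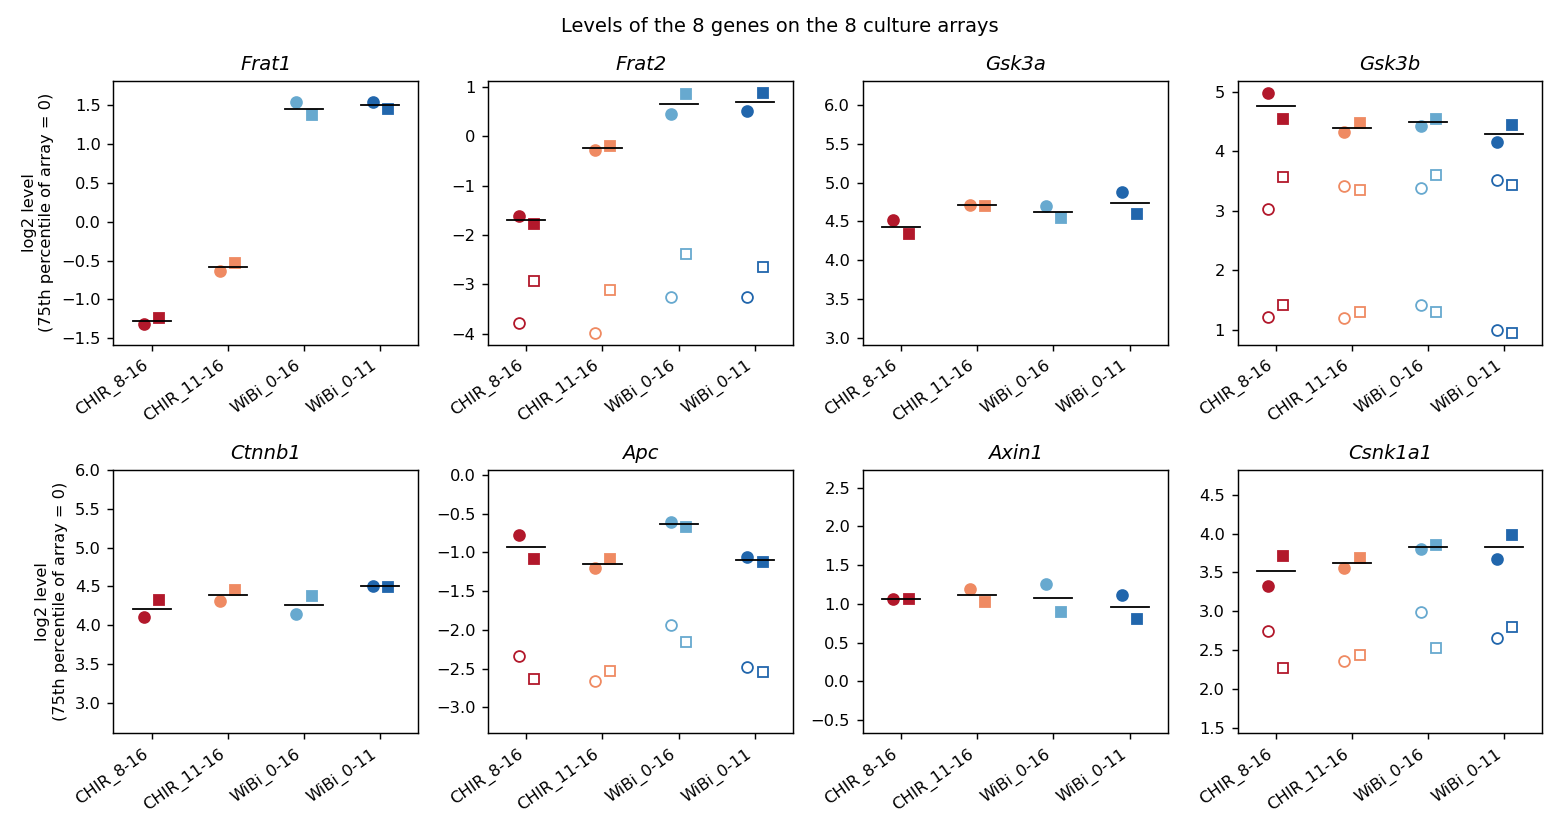
Log2 levels of the 8 genes (y axis, 0 is the 75th percentile of the array; the height of the axis differs between panels) in the 4 culture groups (x axis). Circles are replicate 1 on slide 2, squares replicate 2 on slide 3, filled symbols the brightest probe with the group mean as a bar, and open symbols the gene's other probes. Frat1 lies between -1.32 and -0.53 on the agonist arrays and between 1.38 and 1.55 on the inhibitor-only arrays, while the levels of Gsk3a stay between 4.34 and 4.88.

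The Frat2 calls were not robust to single arrays. With the block, the call in CHIR_8-16 minus WiBi_0-11 was kept without CHIR_8-16 replicate 1 (adjusted p = 0.044). It was lost without CHIR_8-16 replicate 2 (0.051), either CHIR_11-16 array (0.10), either WiBi_0-16 array (0.072) or either WiBi_0-11 array (0.15), while the difference stayed between -2.62 and -2.16 over all 8 omissions. Against WiBi_0-16 the call was likewise kept only without CHIR_8-16 replicate 1 (limma adjusted p = 0.034) and lost in the other 7 omissions (0.054 to 0.12).

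A second, dimmer Frat2 probe lies closer to the start of the gene, at chr19:41921706-41921765 (mm9, minus strand), and is shown because it did not repeat the order of the brighter probe.
Frat2 dimmer probe: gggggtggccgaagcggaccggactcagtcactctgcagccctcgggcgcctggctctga
Its log2 levels were -3.79 and -2.94 in CHIR_8-16 cultures, -3.98 and -3.12 in CHIR_11-16 cultures, -3.25 and -2.38 in WiBi_0-16 cultures, and -3.25 and -2.64 in WiBi_0-11 cultures. The agonist and inhibitor-only arrays overlapped, and their mean differences were -0.64 on slide 2 and -0.52 on slide 3. Agonist minus inhibitor-only cultures differed by -0.58 on this probe (limma adjusted p over 36430 probes = 0.053 with the block and 0.46 without), against -1.65 on the brighter one. CHIR_8-16 minus CHIR_11-16 was 0.18, against -1.45 on the brighter probe. The longest run of bases shared by any Frat1 probe and any Frat2 probe was 8, and the longest shared by both Frat2 probes was also 8.

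Gsk3a and Gsk3b encode the alpha and beta forms of the kinase. Gsk3a (probe at chr7:26013279-26013338, mm9) had log2 levels of 4.52 and 4.34 in CHIR_8-16 cultures, 4.71 and 4.70 in CHIR_11-16 cultures, 4.70 and 4.54 in WiBi_0-16 cultures, and 4.88 and 4.59 in WiBi_0-11 cultures. Gsk3b, by its brightest probe (chr16:38241177-38241236), had 4.98 and 4.55 in CHIR_8-16 cultures, 4.32 and 4.47 in CHIR_11-16 cultures, 4.43 and 4.55 in WiBi_0-16 cultures, and 4.15 and 4.44 in WiBi_0-11 cultures. Agonist and inhibitor-only arrays overlapped for both genes. CHIR_8-16 minus WiBi_0-11 was -0.31 for Gsk3a (95% interval -0.76 to 0.15, limma adjusted p = 0.69) and 0.47 for Gsk3b (-0.07 to 1.0, adjusted p = 0.57). The 3 Gsk3b probes did not move together. The same difference was -0.17 on the probe at chr16:38246094-38246153 and 0.34 on the one at chr16:38187987-38191632, whose 60 bases span 3646 bases of genome and so cross an intron.

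Ctnnb1, the gene of beta-catenin itself (chr9:120869274-120869333), had log2 levels of 4.10 and 4.32 in CHIR_8-16 cultures, 4.31 and 4.46 in CHIR_11-16 cultures, 4.14 and 4.38 in WiBi_0-16 cultures, and 4.51 and 4.49 in WiBi_0-11 cultures. It spanned 0.41 log2 units over the 8 arrays, the narrowest range of the 8 genes by their brightest probes. CHIR_8-16 minus WiBi_0-11 was -0.29 (95% interval -0.73 to 0.16, limma adjusted p = 0.70).

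Axin1 (chr17:26332106-26332165), the scaffold on which the complex assembles, had log2 levels of 1.06 and 1.06 in CHIR_8-16 cultures, 1.19 and 1.03 in CHIR_11-16 cultures, 1.26 and 0.90 in WiBi_0-16 cultures, and 1.12 and 0.80 in WiBi_0-11 cultures. Each neighbouring pair of groups in the order of means overlapped. Apc, the tumour suppressor that binds beta-catenin in the complex, had -0.78 and -1.09 in CHIR_8-16 cultures, -1.20 and -1.09 in CHIR_11-16 cultures, -0.61 and -0.67 in WiBi_0-16 cultures, and -1.06 and -1.13 in WiBi_0-11 cultures. Both WiBi_0-16 arrays were above the other 6 arrays, and so they were on the second Apc probe (-1.94 and -2.16 in WiBi_0-16 cultures, at most -2.34 elsewhere), a feature picked after the values were seen. WiBi_0-16 minus WiBi_0-11 was 0.45 on one probe and 0.47 on the other, and neither passed (limma adjusted p by gene = 1.0 without and 0.44 with the block).

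Csnk1a1, the gene of the priming kinase, had log2 levels of 3.32 and 3.71 in CHIR_8-16 cultures, 3.56 and 3.69 in CHIR_11-16 cultures, 3.80 and 3.85 in WiBi_0-16 cultures, and 3.68 and 3.98 in WiBi_0-11 cultures. Agonist minus inhibitor-only cultures differed by -0.25 (95% interval -0.56 to 0.05, limma adjusted p = 0.44) without the block. With the block the interval was -0.49 to -0.02 (limma adjusted p = 0.19). Agonist and inhibitor-only arrays overlapped over all 8 arrays, and their mean differences were -0.30 on slide 2 and -0.21 on slide 3. On its second probe the agonist arrays ran from 2.27 to 2.74 and the inhibitor-only arrays from 2.52 to 2.99.

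**Figure D2:**
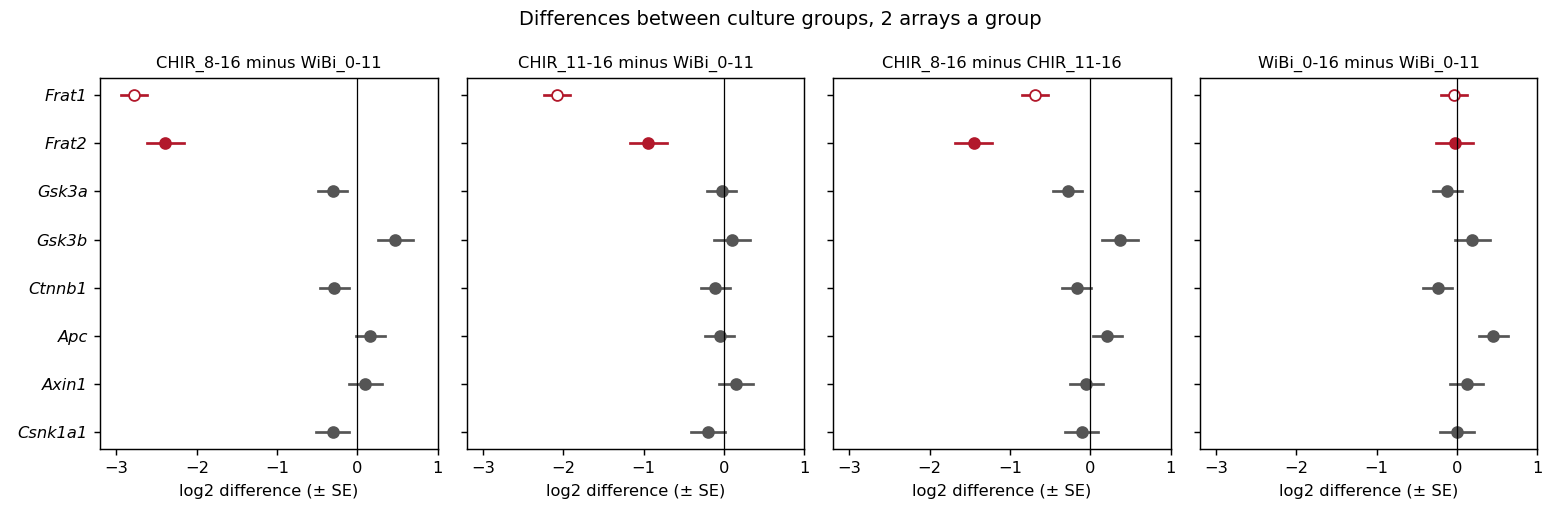
Log2 differences (x axis) with their standard errors from limma without the block for the 8 genes (rows) in 4 comparisons of 2 arrays a group. Red marks the Frat genes, and the open symbol marks Frat1, which has no test. Frat1 and Frat2 are lower in both agonist groups than in WiBi_0-11 and near 0 in WiBi_0-16 minus WiBi_0-11, where the largest difference is that of Apc (0.45).

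Over the 7 comparisons of culture groups, the 6 genes other than the Frat pair differed by -0.50 to 0.47 log2 units on their brightest probes, which is at most 1.42-fold. On their other probes the largest difference was that of the second Apc probe, -0.54 (1.46-fold lower) in CHIR_11-16 minus WiBi_0-16. Their smallest limma adjusted p was 0.44 without the block and 0.15 with it. The 95% intervals of these differences without the block reached from -0.94 to 1.0, so differences within those bounds were not excluded.

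Among the 7 genes that could be tested, limma without the block called 0 in each of the 7 comparisons, against 0.0117% of all genes in CHIR_8-16 minus WiBi_0-11, 0.0157% in CHIR_8-16 minus WiBi_0-16, 0.00783% in agonist minus inhibitor-only cultures and 0% in the other 4. At an unadjusted p under 0.05 it found 1 of the 7 genes in 6 comparisons, namely Apc in WiBi_0-16 minus WiBi_0-11 and Frat2 in the other 5, and 2 in CHIR_11-16 minus WiBi_0-16 (Apc and Frat2). Over all genes, 2.61% to 15.3% reached that p without the block, depending on the comparison. With the block, 1 of the 7 (Frat2, lower) was called in CHIR_8-16 minus WiBi_0-11, where 0.302% of all genes were called (0.223% lower), and 1 (Frat2, lower) in CHIR_8-16 minus WiBi_0-16, where 1.23% were (0.505% lower). None of the 7 was called with the block in agonist minus inhibitor-only cultures (3.4% of all genes, 1.43% lower, Frat2 adjusted p = 0.063). Frat2 had an SE of 0.18 in CHIR_8-16 minus WiBi_0-11 with the block and 0.40 in this pooled fit. The pooled fit counts the gap between CHIR_8-16 and CHIR_11-16 as spread. At an unadjusted p under 0.05 that fit found 2 of the 7, and 22.5% of all genes. With the block none was called in CHIR_11-16 minus WiBi_0-11 (0.0157% of all genes), WiBi_0-16 minus WiBi_0-11 (0.0117%), CHIR_8-16 minus CHIR_11-16 (0.00783%) or CHIR_11-16 minus WiBi_0-16 (0%). In these 4 comparisons the numbers at an unadjusted p under 0.05 were 1, 1, 1 and 2 of the 7, against 12.4%, 10.8%, 11.7% and 22.4% of all genes. These comparisons share arrays and are not independent of each other.

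The 4 agonist arrays and the 4 inhibitor-only arrays did not overlap for 2 of the 8 genes, Frat1, which was chosen for it, and Frat2, both lower with the agonist. Over all genes, 12.3% had arrays that did not overlap, and 5.57% were lower. Frat1 and Frat2 levels correlated at r = 0.92 over the 8 culture arrays, which fall into 4 groups on 2 slides. Frat2 stood at rank 610 of 25537 genes by correlation with Frat1 after the slide means were subtracted (r = 0.925), Csnk1a1 at rank 1007 (r = 0.894), and the other 5 genes between r = -0.546 (Gsk3b) and r = 0.571 (Gsk3a).

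By that measure over 8 arrays, the named genes most like Frat1 were Hrh3, a histamine receptor gene (r = 0.999), Nab2, a corepressor of EGR factors (0.996), Lrrtm1, a synaptic adhesion gene (0.995), Ttc33 (0.991) and Rell2 (0.991). The least like it were Klf1, an erythroid transcription factor gene whose probe was not well above background on 2 of the 8 arrays (-0.993), Slc22a21, a carnitine transporter gene (-0.991), and Tbc1d4, a RAB GTPase-activating gene (-0.990). With 8 arrays in 4 groups such values are common, as 321 genes exceeded r = 0.95 and 249 were below -0.95. Of these 8 names, 1 was kept without subtracting slide means (Klf1) and 1 with all 12 arrays (Ttc33). The agonist minus inhibitor-only difference of Hrh3 was -0.80 and that of Nab2 was -0.92, both smaller than that of Frat1 (-2.41).

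The genes on either side of the Frat pair did not share the size of its difference. Over the 5 nearest measured genes on each side, from Dntt to Mms19, CHIR_8-16 minus WiBi_0-11 ran from -0.56 to 0.57 and agonist minus inhibitor-only from -0.47 to 0.51. Limma called 0 of these 10 genes in either comparison, with or without the block (smallest adjusted p = 0.13), and at an unadjusted p under 0.05 with the block it found 1 in CHIR_8-16 minus WiBi_0-11 (22.1% of all genes) and 2 in agonist minus inhibitor-only cultures (22.5% of all genes). Lcor (-0.47), a nuclear receptor corepressor gene, and Slit1 (-0.43), an axon guidance ligand gene, had agonist arrays that did not overlap the inhibitor-only arrays, both lower, which is 2 of 10 neighbours where 12.3% of all genes had arrays that did not overlap.

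**Figure D3:**
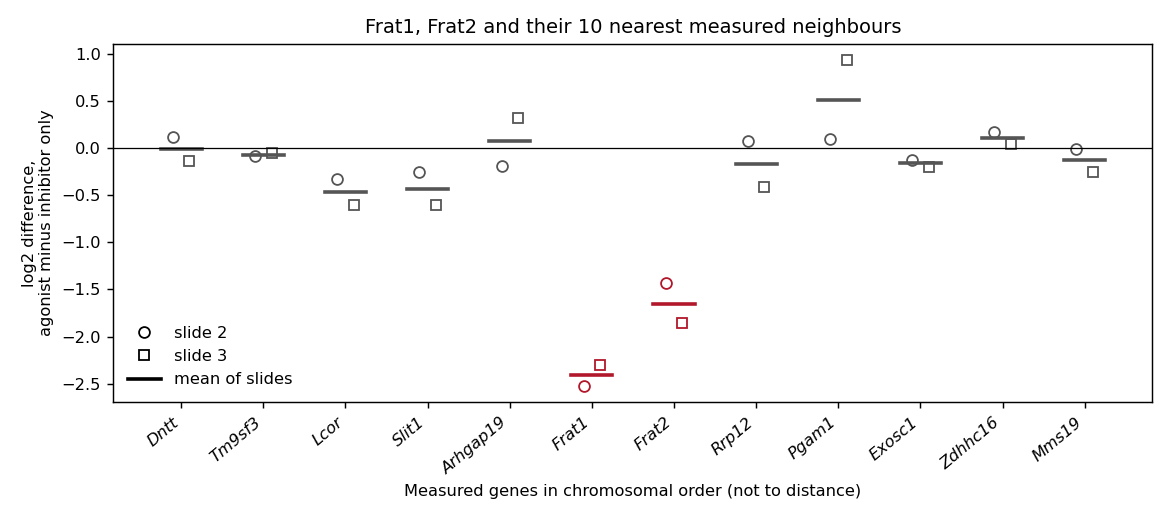
Log2 difference of agonist minus inhibitor-only cultures (y axis) for Frat1, Frat2 and the 5 nearest measured genes on each side, in chromosomal order (x axis, not to distance). Circles are the difference on slide 2, squares that on slide 3 and bars their mean; Frat1 (-2.41) and Frat2 (-1.65) lie below the neighbours, which run from -0.47 to 0.51.

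Lists of other genes of the pathway held 102 genes, of which 99 were measured. Limma without the block called 0 of them in agonist minus inhibitor-only cultures (18 at an unadjusted p under 0.05, 18.2% against 15.3% of all genes). With the block it called 3 higher and 2 lower, 5.05% against 3.4% of all genes. The median difference of the 99 genes was -0.05 against 0.00 over all genes. The 3 called higher (Rnf43, Nkd1 and Lef1) are also in the WNT target list described below. Among 23 measured scaffolds, kinases and adaptors of the destruction complex, 8 were higher and 15 lower, and 1 was called, Amer3, which encodes an APC-binding membrane protein. Amer3 fell, with log2 levels of 1.07 and 1.29 in CHIR_8-16 and 1.34 and 1.42 in CHIR_11-16, against 1.87 and 1.89 in WiBi_0-16 and 1.82 and 1.77 in WiBi_0-11 cultures (difference -0.56, SE 0.10, adjusted p = 0.046 with the block). Apc2, a neuronal relative of Apc, differed by -0.16 and Amer1, another APC-binding protein gene, by 0.08, and neither passed. Axin2, the inducible relative of Axin1, ran from -0.59 to 0.70 on agonist arrays and from -1.35 to -0.84 on inhibitor-only arrays (difference 0.95, limma adjusted p = 0.08 with the block and 0.17 without).

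Of 13 genes of the ubiquitin and tankyrase arm, which removes beta-catenin, receptors and Axin, 1 passed with the block. It was Rnf43, a ligase that clears WNT receptors, which was higher by 1.03 (adjusted p = 0.049). Btrc, which recognises phosphorylated beta-catenin, differed by -0.06. Of 15 signalosome genes, Nkd1, an inducible inhibitor that binds Dishevelled, rose by 1.95 (SE 0.25, limma adjusted p = 0.037 with the block), and Dvl2, a Dishevelled gene, differed by 0.29 without passing. Of 21 nuclear partners of beta-catenin, Lef1 rose by 2.09 (SE 0.42, adjusted p = 0.048 with the block), with levels of 4.22 and 3.36 in CHIR_8-16 and 2.78 and 1.79 in CHIR_11-16, against 1.88 and 0.28 in WiBi_0-16 and 1.24 and 0.40 in WiBi_0-11 cultures. The CHIR_11-16 and WiBi_0-16 arrays overlapped for Lef1, and Tcf7l2 differed by 0.31 without passing. Of 10 adhesion partners 0 were called (limma with or without the block, 3 at an unadjusted p under 0.05 with the block and 2 without, where 22.5% and 15.3% of all genes were), and of 17 kinases upstream of GSK3 and neuronal GSK3 substrates 1 fell, Klc2, a kinesin light chain gene (difference -0.63, SE 0.10, adjusted p = 0.040 with the block).

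In CHIR_8-16 minus WiBi_0-11, 2 of the 99 genes were called with the block, Lef1 (2.97, adjusted p = 0.025) and Nkd1 (2.05, adjusted p = 0.040), both higher, which is 2.02% against 0.302% of all genes. The same 2 were called higher in CHIR_8-16 minus WiBi_0-16, 2.02% against 1.23% of all genes. Without the block, limma called 0 of the 99 in either comparison, where 0.0117% and 0.0157% of all genes were called. In CHIR_8-16 minus WiBi_0-11 the limma adjusted p without the block was 0.30 for Lef1 and 0.16 for Nkd1. The WNT target list was kept as a check that the agonist acted and was chosen with earlier results of these data known. It had 11 of 13 measured genes higher and 2 lower in agonist cultures, with a median of 1.03 against 0.00 over all genes. This list shares Lef1, Nkd1 and Rnf43 with the lists above, so the 2 sets of results are not separate. Sp5, a direct target, had 0.11 and 0.65 in CHIR_8-16 and 0.72 and 0.26 in CHIR_11-16, against -5.63 and -4.15 in WiBi_0-16 and -3.66 and -1.62 in WiBi_0-11 cultures. It was 18.3-fold higher with the agonist (limma adjusted p = 0.040 with the block and 0.082 without).

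In these bulk samples, fewer cells of a type and less RNA per cell cannot be told apart. All 11 neuron markers were detected on every culture array, and their summed level, in multiples of the array's 75th percentile, was 332 to 372 in agonist and 377 to 406 in inhibitor-only cultures. These sums did not overlap and were lower with the agonist. Of the 11 markers, 7 were lower and 4 higher with the agonist (median difference -0.12, against 0.00 over all genes), and limma called 0 with or without the block. All 8 pallial markers were detected as well (66.4 to 83.4 in agonist and 72.2 to 82.0 in inhibitor-only cultures), and so were all 8 markers of neural progenitors (206 to 354 and 202 to 363). Though the progenitor sums overlapped, 7 of 8 progenitor markers were higher in agonist than in inhibitor-only cultures (median difference 0.50, 0.80 on slide 2 and 0.36 on slide 3, against 0.00 over all genes) and 0 were called by limma with or without the block. The GABAergic markers, 8 of 8 detected, summed to 5.35 to 10.01 in CHIR_8-16 and 24.35 to 39.6 in CHIR_11-16, against 20.0 to 38.3 in WiBi_0-16 and 22.7 to 41.7 in WiBi_0-11 cultures. All 8 were lower in CHIR_8-16 than in WiBi_0-11 cultures (median difference -2.01), and 4 of 8 were lower in CHIR_11-16 than in WiBi_0-11 cultures (median 0.08). In agonist minus inhibitor-only cultures all 8 were lower (median difference -0.99, -0.37 on slide 2 and -1.49 on slide 3). Mesenchyme markers, 8 of 8 detected, summed to 2.49 to 4.56 in CHIR_8-16, 3.80 to 7.42 in CHIR_11-16, 5.08 to 5.70 in WiBi_0-16 and 12.4 to 12.6 in WiBi_0-11 cultures, with 5 of 8 lower in CHIR_8-16 than in WiBi_0-11 cultures (median difference -1.60). Oligodendrocyte lineage markers summed to 41.3 to 217 in agonist and 61.1 to 89.1 in inhibitor-only cultures, with 7 of 8 detected in CHIR_8-16 and 8 of 8 in the other groups. These sums overlapped, but 7 of the 8 genes were lower with the agonist, with a median difference of -1.28 in agonist minus inhibitor-only cultures, -1.90 in CHIR_8-16 minus WiBi_0-11 and -0.76 in CHIR_11-16 minus WiBi_0-11. With the block, limma called 2 of them lower in agonist minus inhibitor-only cultures (Gpr17 and Olig1, where 3.4% of all genes were called). It called 3 in CHIR_8-16 minus WiBi_0-11 (with Olig2, where 0.302% of all genes were) and 0 in CHIR_11-16 minus WiBi_0-11. Of the other marker lists, that fit called Neurog2 (pallium), S100b (astrocytes) and Prrx1 (mesenchyme) higher in agonist minus inhibitor-only cultures. Their lists were mixed there, with 4 pallial markers higher and 4 lower, 2 astrocyte markers higher and 4 lower, and 3 mesenchyme markers higher and 5 lower (medians 0.12, -0.15 and -0.55). In CHIR_8-16 minus WiBi_0-11 the fit with the block called Neurog2 higher, and Gad1 (GABAergic) and Col3a1 (mesenchyme) lower. All these names are given after their values were seen. Without the block, limma called 0 markers of these lists or of the oligodendrocyte list in either comparison. The sums of astrocyte markers (6 of 6 detected, 4.90 to 12.6 and 5.41 to 14.5), of endothelium, blood and microglia markers (7 of 8 listed passed the filter, 5 to 7 detected, 4.85 to 10.3 and 5.69 to 9.95) and of pluripotency markers (4 of 6 listed passed the filter, all 4 detected, 1.20 to 7.20 and 1.55 to 8.62) overlapped between agonist and inhibitor-only cultures. The part of any of these cell types in the Frat differences was not tested.

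In the E15 tissues, with 1 array each and so no test, midbrain was the lowest of the 4 for 7 of the 8 genes, all but Gsk3a, where 35.3% of 25412 genes had midbrain lowest. The count was 6 with quantile normalization (without Csnk1a1) and 5 with the deposited table or with normexp (without Csnk1a1 and Gsk3b). These counts are for the brightest probes, and on 1 of the other Gsk3b probes midbrain was the second highest (3.37, midbrain minus telencephalic mean 0.10). Frat2 showed the widest gap, with a log2 level of -0.12 in midbrain, against 1.37 in cortex, 1.71 in hippocampus and 1.06 in ventral telencephalon. Midbrain minus the mean of the 3 telencephalic tissues was -1.50 log2 units (2.84-fold lower), and 1.24% of genes were lower in midbrain by at least as much. The dimmer Frat2 probe was also lowest in midbrain, at -3.80, with a difference of -0.65. Frat1 had 1.71 in midbrain, against 2.29 in cortex, 2.09 in hippocampus and 2.35 in ventral telencephalon. Axin1 had 0.75 in midbrain and 1.17 to 1.55 in the telencephalic tissues, and Ctnnb1 had 4.27 in midbrain and 4.50 to 5.05 in the telencephalic tissues. Gsk3a had 4.75 in midbrain and 4.25 to 4.80 in the telencephalic tissues. The remaining 3 genes had differences of -0.30 (Gsk3b), -0.25 (Apc) and -0.25 (Csnk1a1) between midbrain and the telencephalic mean on their brightest probes.

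**Figure D4:**
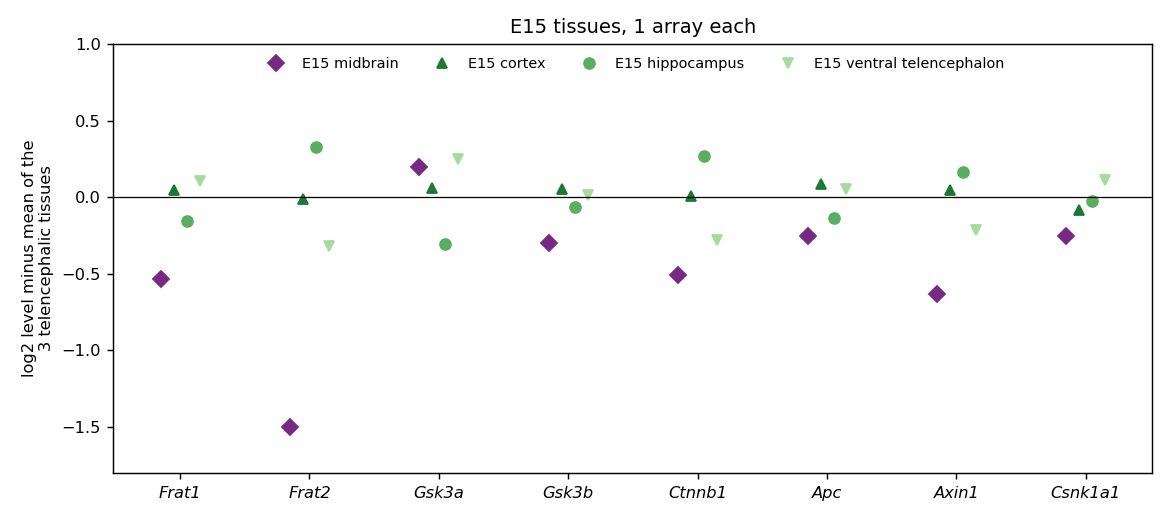
Log2 level of each gene in the 4 E15 tissues minus its mean over the 3 telencephalic tissues (y axis), 1 array a tissue, by the brightest probe. Midbrain (diamonds) is lowest for 7 of 8 genes (5 with the deposited table) on these probes and lies at -1.50 for Frat2.

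Hippocampus minus cortex was -0.20 for Frat1 and 0.34 for Frat2, and lay between -0.36 (Gsk3a) and 0.27 (Ctnnb1) for the other 6 genes. Set against the telencephalic mean, agonist cultures were at -3.17 for Frat1 and -2.34 for Frat2, and inhibitor-only cultures at -0.76 and -0.70. For the other 6 genes these values lay between -0.48 and 0.20. Tissues and cultures were on different slides, so that slide and source cannot be told apart in these last values.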

How the data were processed

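Per the labels, Cy3-labelled cRNA was hybridised to Agilent arrays of design 028005. Per the file headers, the deposited intensity values came from Feature Extraction 10.7.3.1 by Agilent (the submitters' processing notes name 9.1 and limma), which subtracted background within each array. The deposited series table holds log2 values processed by the authors across arrays, and served only as an alternative. Here, levels were log2 processed signal minus the array's 75th percentile (641.3 to 1135.4 over 12 arrays) without spots marked as outliers. Probes were kept that both arrays of some culture group marked as well above background and that had an unmarked spot on all 8 culture arrays. Of 55681 probes 36430 passed, and the brightest stood for each of 25538 genes. Between 59.06% and 71.18% of spots per array were well above background, 0 were saturated, and the number of arrays limits the precision.

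Limma 3.58.1 (R 4.3.3) fitted 1 mean per group over the 8 culture arrays (2 pooled means for agonist minus inhibitor-only), with Benjamini-Hochberg adjustment over all genes and calls at 0.05. Both slides held all 4 groups with replicate 1 on slide 2 and replicate 2 on slide 3. Deviations of arrays with the same number correlated at 0.605 to 0.691 and 8782 genes differed between slides, so the fit with slide as a block is given beside the main one. The fit was tested on simulated data, and the alternatives are given in the closing section. Normexp used the median signal, since the culture files hold no mean signal. Named genes were the 8 members, up to 6 called genes per pathway list, 10 chosen pathway genes (Frat3 had no probe under that name), and the 5 highest and 3 lowest correlations with Frat1. The members and lists were chosen with earlier results of these data known.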

Additional observations from a re-analysis of the deposited data

How the results depend on the processing

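Frat1 and Frat2 kept the direction of all 12 differences that involve an agonist group under every alternative run, namely other scalings, the deposited table, no filter on dim probes, the mean of a gene's probes, marked spots kept, a trended prior, a fit to only the groups compared, and leaving out arrays, all but the fit to only the groups compared also with the slide block. Frat1 was chosen for its fall, so its direction is only a description. No alternative used the dimmer Frat2 probe alone, on which CHIR_8-16 minus CHIR_11-16 was 0.18, against -1.45 on the brighter probe. Frat1 in CHIR_8-16 minus WiBi_0-11 ranged from -2.91 to -2.62 and Frat2 from -2.62 to -1.41, the last with both Frat2 probes averaged. Of 42 differences of the other 6 genes, 20 changed sign under some alternative, none exceeded 0.77 in size and the lowest adjusted p was 0.099. The count of genes called without the block was 0 in every alternative except a trended prior, which gave 1 (Frat2) in CHIR_8-16 minus WiBi_0-16. The replicate block gave 1 (Frat2) in CHIR_8-16 minus WiBi_0-11 and 1 in CHIR_8-16 minus WiBi_0-16. With the block, averaging probes or changing the scaling kept the 1 call in both comparisons, dropping the dim filter gave 0 in both, and omitting single arrays gave 0 to 1. With the block a trended prior gave 1 instead of 0 in CHIR_8-16 minus CHIR_11-16, CHIR_11-16 minus WiBi_0-16 and agonist minus inhibitor-only cultures, where normexp with quantile normalization and the mean of probes also gave 1 (Frat2 each time; the causes were not tested). The number of genes lowest in midbrain was 5 to 7 over the scalings. The 8 names most like Frat1 shared 1 with those found without slide means subtracted and 1 with those over 12 arrays. The number of arrays, 2 a group, limits all of these results.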
